A study of Mus musculus with 12 samples.

Results

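Glutamate is the main excitatory transmitter of the brain, and the genes that move and recycle it were examined in RNA sequencing of acutely injured mouse neurons. The set holds 9 genes, chosen by name from the deposited count table of 22899 genes: 3 plasma membrane glutamate transporters (Slc1a1, Slc1a2 and Slc1a3), 3 vesicular glutamate transporters (Slc17a6, Slc17a7 and Slc17a8) and 3 genes of the glutamine cycle (Glul, Slc38a1 and Slc38a2). All 9 were in the table, and all 9 passed the filter on low counts. The 12 libraries came from primary neurons of C57Bl6 mice, in 4 groups of 3. The OGD group underwent oxygen-glucose deprivation, a culture model of ischaemia, and the OGD control group was untreated. The KA group was exposed to 100 µM kainic acid, which opens AMPA and kainate types of glutamate receptor, and the KA control group was untreated. The labels give neither brain region nor culture age nor exposure time. They also leave unsaid whether the 3 replicates of a group were grown separately, and each p-value therefore reflects only library-to-library spread, possibly of technical origin.

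In the brain, glutamate released at a synapse is cleared by sodium-coupled transporters of the Slc1a family, most of it into astrocytes. Astrocytes convert it to glutamine with glutamine synthetase, the product of Glul, and release the glutamine. Neurons take glutamine up through system A transporters of the Slc38 family, turn it back into glutamate, and load it into vesicles through the Slc17a6 to Slc17a8 proteins.

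Total counts ranged from 12873444 to 21142267 per library, and 13139 genes had enough counts to be tested. Levels are given as CPM, counts relative to the library total, scaled with TMM, which sets the bulk of genes equal between libraries. Of 9 general neuron markers, 7 averaged over 1 CPM, but Rbfox3 and Syt1, both defining genes of mature neurons, had 71 and 187 counts over all 12 libraries. Of 18 astrocyte and radial glia markers, Gjb6 had no count and S100b, Slc4a4 and Fgfr3 averaged under 1 CPM. In other marker lists Lhx6 and Pdgfrb had no count and Cux1 had 10 counts over all 12 libraries. Sst and Gad1, which stand in the same list as Lhx6, averaged 634 and 877 CPM. Whether such low counts reflect the cells or the read counting was not tested. The astrocyte and radial glia list summed to 420 to 446 CPM in OGD, set against 476 to 497 CPM in OGD control. In KA it summed to 688 to 747 CPM, set against 337 to 346 CPM in KA control, so it was highest in KA. Vim alone averaged 357 CPM in KA, set against 72.1 CPM in KA control. Summed markers of the oligodendrocyte lineage, microglia, endothelial cells, and fibroblasts and mural cells reached at most 50.2, 23.7, 3.55 and 22.4 CPM in any library. These are bulk libraries, in which fewer cells of a type and less RNA per cell cannot be told apart.

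The 4 genes with the widest gap between the OGD and KA responses are shown by their promoters. Each window runs from 250 bases before to 50 bases after a RefSeq transcription start (GRCm38.p6, the assembly of mm10), 5′ to 3′ on the strand of the gene. Capitals mark the GC box, GGGCGG or its reverse complement.
Slc1a3, chr15:8710758-8711057, minus strand: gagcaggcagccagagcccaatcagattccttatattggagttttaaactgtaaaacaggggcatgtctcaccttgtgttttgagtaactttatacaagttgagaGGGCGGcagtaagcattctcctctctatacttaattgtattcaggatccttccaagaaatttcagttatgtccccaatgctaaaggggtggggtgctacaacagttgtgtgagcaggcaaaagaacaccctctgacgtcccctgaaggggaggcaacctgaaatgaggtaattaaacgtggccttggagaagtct
Slc17a6, chr7:51621580-51621879, plus strand: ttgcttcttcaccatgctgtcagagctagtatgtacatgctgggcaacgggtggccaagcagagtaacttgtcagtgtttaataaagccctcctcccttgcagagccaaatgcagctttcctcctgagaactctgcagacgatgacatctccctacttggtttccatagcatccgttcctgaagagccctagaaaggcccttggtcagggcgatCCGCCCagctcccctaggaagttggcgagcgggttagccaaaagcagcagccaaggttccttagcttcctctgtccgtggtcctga
Glul, chr1:153899679-153899978, plus strand: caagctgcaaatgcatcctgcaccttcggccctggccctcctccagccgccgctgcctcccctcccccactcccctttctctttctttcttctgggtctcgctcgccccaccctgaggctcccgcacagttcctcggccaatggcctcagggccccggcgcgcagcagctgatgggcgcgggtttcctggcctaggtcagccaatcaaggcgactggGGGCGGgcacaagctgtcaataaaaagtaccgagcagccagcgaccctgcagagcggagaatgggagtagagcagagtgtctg
Slc38a2, chr15:96699679-96699978, minus strand: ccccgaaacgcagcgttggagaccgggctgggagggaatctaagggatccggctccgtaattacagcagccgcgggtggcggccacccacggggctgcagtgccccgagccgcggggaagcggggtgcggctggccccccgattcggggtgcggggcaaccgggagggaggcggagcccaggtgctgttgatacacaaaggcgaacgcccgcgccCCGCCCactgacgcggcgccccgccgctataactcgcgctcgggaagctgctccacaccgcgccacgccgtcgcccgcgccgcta

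RefSeq windows were matched for 8 of the 9 genes, 10 windows in all, with 2 each for Slc17a6 and Slc17a8. The downstream ends of the Slc1a2, Slc1a3, Slc17a6 and Slc17a7 windows were not found in the GENCODE M21 transcripts of those genes. The Slc17a6 window shown ends at 51621879, before the GENCODE start of the gene at 51622006. The GC box was in 6 of the 10, against 35.66% of the 32851 mouse windows of that length. On both strands, none of the 10 held the cyclic AMP response element TGACGTCA, the AP-1 site TGANTCA or the C/EBP-ATF core TGATGNAA. Among all windows these were found in 1.79%, 7.81% and 3.97%. The Slc17a7 window held 3 GC boxes, a pair of which overlap by 1 base. A match is a description of letters and not of binding.

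Levels of different genes were compared per kilobase of the longest annotated transcript. Over the 12 libraries Slc38a2, which encodes the glutamine carrier SNAT2, was highest at 79.7 CPM per kb, followed by Glul at 64.7 and the VGLUT1 gene Slc17a7 at 50.3 CPM per kb. The neuronal transporter gene Slc1a1 had 46.5 CPM per kb, the VGLUT2 gene Slc17a6 had 27.8 and the glial transporter gene Slc1a3 had 11.2 CPM per kb. The order at the top differed between groups. Glul was above Slc38a2 in KA, at 98.2 ± 4.34 against 76.4 ± 4.998 CPM per kb, and in KA control, at 59.8 ± 2.57 against 48.9 ± 0.315 CPM per kb (SD, n = 3 each). In OGD, Glul was at 38.1 ± 1.05 CPM per kb. It was below Slc38a2 at 74.0 ± 2.49, Slc17a7 at 46.4 ± 3.25 and Slc1a1 at 39.96 ± 1.68 CPM per kb. Libraries of Glul and Slc1a1 overlapped there, at 37.3 to 39.3 and 38.8 to 41.9 CPM per kb. This order in OGD depends on the length used. The union of exons is 3323 bases for Glul, 5392 for Slc17a7 and 8257 for Slc1a1. By that length Glul stood above Slc17a7 and Slc1a1 in OGD. Slc38a1, Slc17a8 and Slc1a2 lay far lower. Slc38a1, which encodes the glutamine carrier SNAT1, had 2.43 CPM per kb. The VGLUT3 gene Slc17a8 had 1.03 CPM per kb, and Slc1a2, which encodes the main astrocytic glutamate transporter of the brain, had 0.371 CPM per kb. Slc1a2 and Slc17a8 rest on 41 to 110 and 37 to 120 counts per library, so their values are the least precise of the set. Slc1a2 has 12 annotated transcripts, and the labels do not say how reads in exons of several transcripts were counted.

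**Figure D1:**
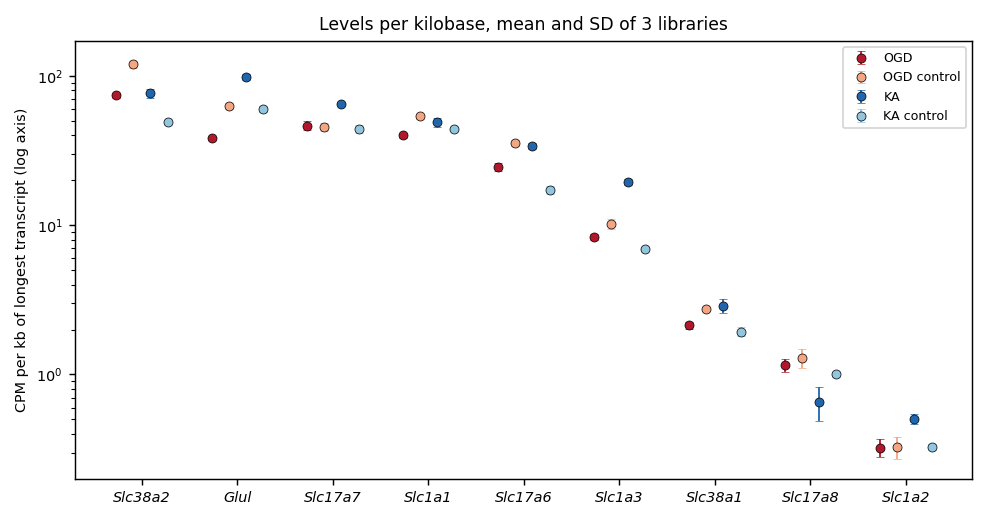
Level of each gene as CPM per kb of its longest transcript (log axis), with mean and SD of 3 libraries in OGD, OGD control, KA and KA control. Genes run from the highest to the lowest mean over the 12 libraries, from Slc38a2 at 79.7 to Slc1a2 at 0.371 CPM per kb.

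Each injury was set against its own controls. After OGD, 6 of the 9 genes fell and none rose, with a median log2 fold change of -0.36 against 0.01 over all genes tested. Calls were made with edgeR's quasi-likelihood test at a Benjamini-Hochberg adjusted p under 0.05, which called 38.1% of all genes, 20.5% lower and 17.6% higher in OGD. After KA, 8 of the 9 rose and 1 fell, with a median of 0.63 against -0.02 over all genes tested; here 72.7% of all genes were called, 35.2% higher and 37.6% lower in KA. On library totals without TMM the median of all genes in the KA comparison moved by -0.26. That scaling gave 3165 genes higher and 6739 lower in KA in place of 4622 and 4936, and 3130 higher and 2255 lower in OGD in place of 2315 and 2694. The members were chosen with earlier results of these data known, so the counts are descriptions.

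**Figure D2:**
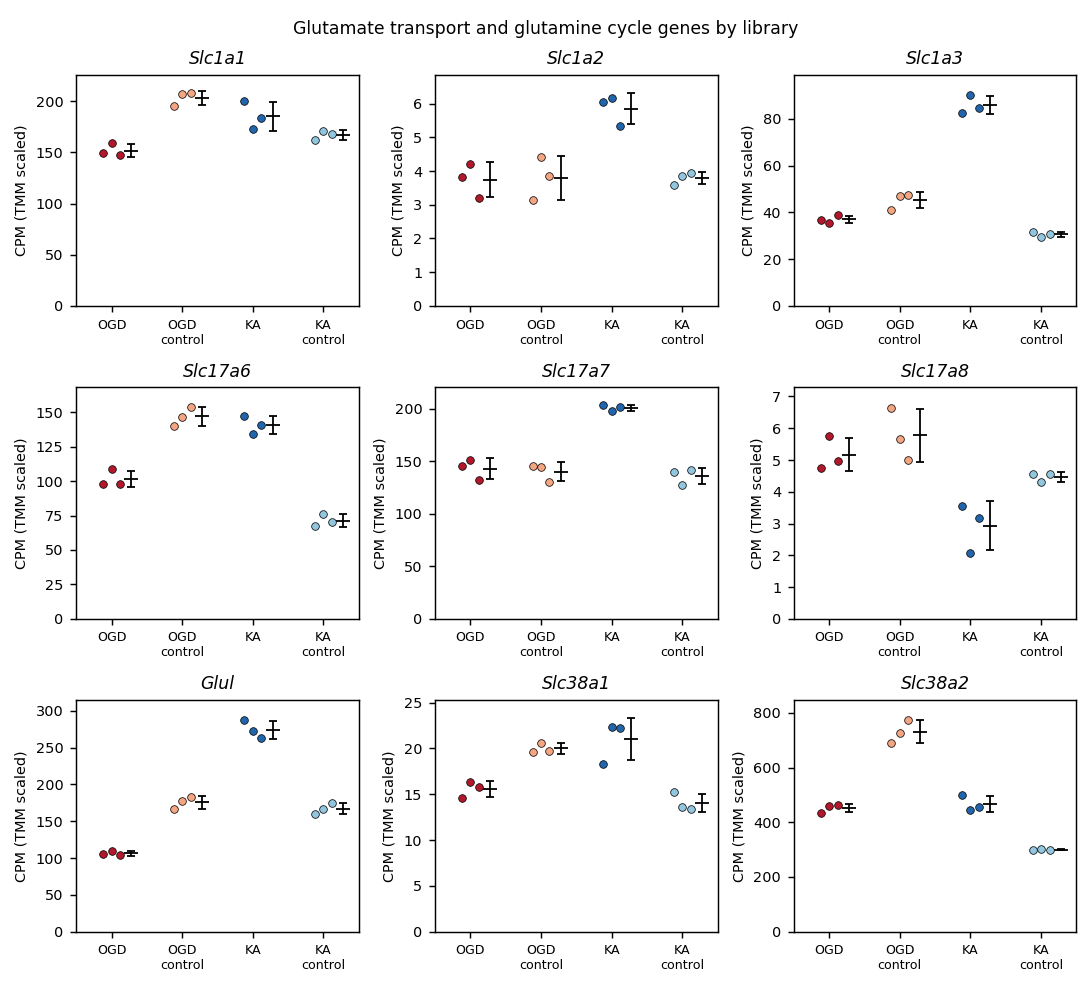
TMM-scaled CPM of each gene in every library, by group (OGD, OGD control, KA, KA control), with the mean and SD of 3 libraries beside the points. Glul lies between 104 and 110 CPM in OGD and between 263 and 287 CPM in KA, while both control groups lie between 160 and 183 CPM.

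Among the plasma membrane transporters, Slc1a3 had the largest change after KA and Slc1a1 after OGD. Slc1a3, known as GLAST, takes up glutamate in astrocytes and radial glia. The gene spans chr15:8634124-8710764 on the minus strand (mm10). It had 82.7, 90.4 and 84.7 CPM in KA, against 31.5, 29.5 and 30.8 CPM in KA control. All KA libraries lay far above all of their controls, a 2.82-fold rise (log2 fold change 1.50, SE 0.06, edgeR adjusted p = 1.04e-19). In OGD it had 36.9, 35.4 and 38.7 CPM, against 41.2, 47.1 and 47.6 CPM in OGD control. These groups did not overlap either, and the fall was small (log2 fold change -0.30, SE 0.06, edgeR adjusted p = 0.000305).

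Some astrocyte and radial glia markers changed beside Slc1a3, and their part in its change was not tested. After KA 7 of 14 tested markers rose and 1 fell (3 fell without TMM), and after OGD 4 fell and none rose. Over all genes tested 35.2% were higher and 37.6% lower after KA, and 17.6% higher and 20.5% lower after OGD. After KA the share of markers that rose was above that of all genes, and the share that fell was below it. After OGD the share of markers that fell was above that of all genes, and none rose. With rises and falls pooled, the share of markers called was below that of all genes after both injuries. These shares rest on 14 markers, and their differences from all genes were not tested. Of the 4 most abundant, Vim, an intermediate filament gene, had 357 ± 20.9 CPM in KA, set against 72.1 ± 5.53 CPM in KA control (SD, n = 3 each). Sox9, a glial transcription factor, had a log2 fold change of 3.22 (SE 0.10) and Fabp7, a fatty acid binding protein of radial glia, of 0.43 (SE 0.06) after KA. Atp1b2, a sodium pump subunit, was at 140 ± 3.91 CPM in KA, set against 141 ± 1.37 CPM in KA control and did not pass. The markers went different ways within the list. The other markers that rose after KA were Gja1 (1.07, SE 0.07), Acsbg1 (0.95, SE 0.15), Mlc1 (0.84, SE 0.13) and Aldh1l1 (0.70, SE 0.12). The 1 marker that fell was Hes5 (-1.17, SE 0.31), at a low level. Gfap, the classical astrocyte filament gene, averaged 1.41 ± 0.073 CPM in KA, set against 1.26 ± 0.15 CPM in KA control. That level is also low, and the difference did not pass.

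Slc1a1, known as EAAC1, is the glutamate and cysteine transporter of neurons. It spans chr19:28835049-28913960 on the plus strand. It had 149, 159 and 147 CPM in OGD, against 196, 207 and 208 CPM in OGD control. The OGD libraries lay below all of their controls (log2 fold change -0.42, SE 0.05, edgeR adjusted p = 1.01e-07). In KA it had 200, 172 and 183 CPM, against 162, 171 and 168 CPM in KA control. The groups came close to each other, and the difference was small (log2 fold change 0.15, SE 0.05, edgeR adjusted p = 0.0106). This call was lost without KA replicate 1 (log2 fold change 0.09, adjusted p = 0.117) or KA control replicate 1 (0.12, adjusted p = 0.0604), and its direction turned without TMM (-0.11, adjusted p = 0.0312). Exons of 4430402I18Rik overlap Slc1a1 on the opposite strand, and reads of the overlap cannot be told apart because the kit does not mark strand; that gene had 25 to 76 counts per library, against 2204 to 3979 for Slc1a1.

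Slc1a2, known as GLT-1, spans chr2:102658659-102790784 on the plus strand. It had 6.06, 6.18 and 5.32 CPM in KA, against 3.60, 3.86 and 3.93 CPM in KA control. The groups did not overlap, and Slc1a2 rose 1.55-fold (log2 fold change 0.63, SE 0.14, edgeR adjusted p = 0.000174). In OGD it had 3.82, 4.22 and 3.19 CPM, against 3.13, 4.42 and 3.85 CPM in OGD control. The OGD libraries lay within the range of their controls, and no change passed the test (log2 fold change -0.03, SE 0.15).

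The vesicular transporters differed among themselves. Slc17a6, which encodes VGLUT2, spans chr7:51622006-51671119 on the plus strand. It had 98.1, 109 and 98.2 CPM in OGD, against 140, 147 and 154 CPM in OGD control. It fell without overlap between the groups (log2 fold change -0.53, SE 0.05, edgeR adjusted p = 5.88e-09). In KA it had 147, 135 and 141 CPM, against 67.1, 76.4 and 70.2 CPM in KA control. This was a 1.97-fold rise, again without overlap (log2 fold change 0.98, SE 0.06, edgeR adjusted p = 7.13e-16).

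Slc17a7, which encodes VGLUT1, the vesicular transporter of most cortical and hippocampal excitatory neurons, spans chr7:45163949-45176142 on the plus strand. It had 204, 198 and 201 CPM in KA, against 139, 127 and 141 CPM in KA control. All KA libraries were higher (log2 fold change 0.56, SE 0.05, edgeR adjusted p = 9.36e-11). In OGD it had 146, 151 and 132 CPM, against 146, 145 and 130 CPM in OGD control. These groups overlapped, and no change passed the test (log2 fold change 0.03, SE 0.05, edgeR adjusted p = 0.687).

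Slc17a8, which encodes VGLUT3, the vesicular transporter found in some neurons that use other main transmitters, was the 1 gene of the set that fell after KA. It spans chr10:89574020-89621253 on the minus strand. It had 3.55, 2.08 and 3.16 CPM in KA, against 4.55, 4.29 and 4.55 CPM in KA control. All KA libraries were lower, with KA replicate 2 lowest (log2 fold change -0.65, SE 0.17, edgeR adjusted p = 0.00111). Without that library the log2 fold change was -0.41 (adjusted p = 0.0446). In OGD it had 4.76, 5.75 and 4.98 CPM, against 6.65, 5.67 and 5.01 CPM in OGD control, and the groups overlapped (log2 fold change -0.14, SE 0.14).

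The balance of the main vesicular transporters was read within each library as Slc17a6 over Slc17a7, both per kb. The ratio was 0.530 ± 0.027 in OGD and 0.785 ± 0.089 in OGD control, and 0.522 ± 0.016 in KA and 0.392 ± 0.049 in KA control (SD, n = 3 each). It was lower in OGD and higher in KA than in their own controls, with no overlap between libraries in either case. Both injured groups lay near the same value, and the control groups lay further apart. Read the same way, Slc1a3 over Slc1a1 was 0.209 ± 0.017 in OGD and 0.191 ± 0.0089 in OGD control, and 0.400 ± 0.047 in KA and 0.157 ± 0.0091 in KA control.

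Markers of excitatory neurons were set beside the vesicular transporters, of which Slc17a6 alone fell after OGD and Slc17a8 fell after KA. The part of these markers in the changes was not tested. Of 11 tested markers 8 fell and none rose after OGD (7 fell without TMM), and 10 rose and none fell after KA (8 rose and 1 fell without TMM). Their summed level was 1602 to 1619 CPM in OGD, set against 2191 to 2420 CPM in OGD control, and 3728 to 3966 CPM in KA, set against 1671 to 1715 CPM in KA control. Of 11 tested inhibitory neuron markers 9 fell and none rose after OGD (1 rose without TMM), and after KA 8 rose and 2 fell (6 and 2 without TMM). These counts stand beside the 38.1% of all genes called after OGD and the 72.7% called after KA.

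In the glutamine cycle, all 3 genes fell after OGD and rose after KA. Glul, which encodes glutamine synthetase, an enzyme of astrocytes in the brain, spans chr1:153899944-153909723 on the plus strand. It had 105, 110 and 104 CPM in OGD, against 166, 177 and 183 CPM in OGD control. This was a fall to well below every control library (log2 fold change -0.72, SE 0.05, edgeR adjusted p = 2.37e-12). In KA it had 287, 272 and 263 CPM, against 160, 167 and 174 CPM in KA control. All KA libraries were higher, by 1.64-fold (log2 fold change 0.72, SE 0.05, edgeR adjusted p = 2.56e-14). With TMM the fall and the rise were of about the same size, and both control groups overlapped. Without TMM the log2 fold change of Glul was -0.68 after OGD and 0.46 after KA. Exons of Mir8114 and Teddm2 overlap Glul and those of Gm13872 overlap Slc1a2; these 3 genes were not analysed here.

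Slc38a2, which encodes SNAT2, a system A carrier of glutamine and other small neutral amino acids, spans chr15:96687392-96699730 on the minus strand. It had 435, 460 and 463 CPM in OGD, against 691, 728 and 774 CPM in OGD control. The OGD libraries lay far below their controls (log2 fold change -0.69, SE 0.05, edgeR adjusted p = 2.83e-12). In KA it had 502, 443 and 457 CPM, against 298, 302 and 299 CPM in KA control. It rose 1.56-fold without overlap (log2 fold change 0.64, SE 0.05, edgeR adjusted p = 5.44e-13).

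Slc38a1, which encodes SNAT1, the system A carrier of many neurons, lies at chr15:96571418-96642913 on the minus strand, 44479 bases from Slc38a2. It had 14.6, 16.3 and 15.8 CPM in OGD, against 19.6, 20.6 and 19.7 CPM in OGD control. It fell, with no overlap between the groups (log2 fold change -0.36, SE 0.08, edgeR adjusted p = 0.000892). In KA it had 18.3, 22.4 and 22.3 CPM, against 15.2, 13.6 and 13.4 CPM in KA control. It rose 1.51-fold without overlap (log2 fold change 0.59, SE 0.08, edgeR adjusted p = 2.34e-07).

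The OGD and KA responses were then tested against each other, which uses the 4 groups together. For 8 genes the OGD response was lower than the KA response, and for Slc17a8 it was higher; 68.2% of all genes were called in this test, 33.8% lower and 34.4% higher. Without TMM 2971 genes were lower and 6396 higher, and the call of Slc1a2 was lost (adjusted p = 0.121). The difference was largest for Slc1a3 (log2 -1.79, SE 0.09, edgeR adjusted p = 1.64e-17), Slc17a6 (-1.51), Glul (-1.44) and Slc38a2 (-1.33). For Slc17a8 it was 0.52 (SE 0.22, edgeR adjusted p = 0.0407), and this call was lost with DESeq2 (adjusted p = 0.157), with DESeq2 size factors (adjusted p = 0.0519) and without OGD replicate 2, OGD control replicate 2 or 3, KA replicate 2, or KA control replicate 1 or 3. Those 6 fits gave adjusted p-values of 0.0607 to 0.288 and the lowest value, 0.27, without KA replicate 2.

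The untreated groups of the experiments were also compared. In KA control against OGD control 6 of the 9 genes were lower and none higher; 68.7% of all genes were called, 34.2% lower and 34.5% higher (3132 lower and 6155 higher without TMM). Slc38a2 averaged 299 ± 1.93 CPM in KA control, against 731 ± 41.7 CPM in OGD control (SD, n = 3 each), a log2 fold change of -1.29 (SE 0.05, edgeR adjusted p = 5.20e-20). Slc17a6 averaged 71.2 ± 4.77 CPM in KA control, against 147 ± 7.21 CPM in OGD control (-1.04, SE 0.06). Slc1a3, Slc38a1, Slc17a8 and Slc1a1 were also lower in KA control, with log2 fold changes of -0.57, -0.51, -0.36 and -0.28. Slc17a8 lost this call with DESeq2 (adjusted p = 0.0874) and without OGD control replicate 1, OGD control replicate 2 or KA control replicate 2 (adjusted p = 0.0507 to 0.14). Without TMM Slc17a8 and Slc1a1 lost it (adjusted p = 0.279 and 0.0614). Glul (-0.07, SE 0.05), Slc17a7 (-0.04, SE 0.05) and Slc1a2 (-0.01, SE 0.15) did not pass. Without TMM, Glul (0.11, adjusted p = 0.0239) and Slc17a7 (0.14, adjusted p = 0.0262) were higher in KA control. The groups belong to different experiments, and whatever else differed between those experiments cannot be told apart from the group.

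**Figure D3:**
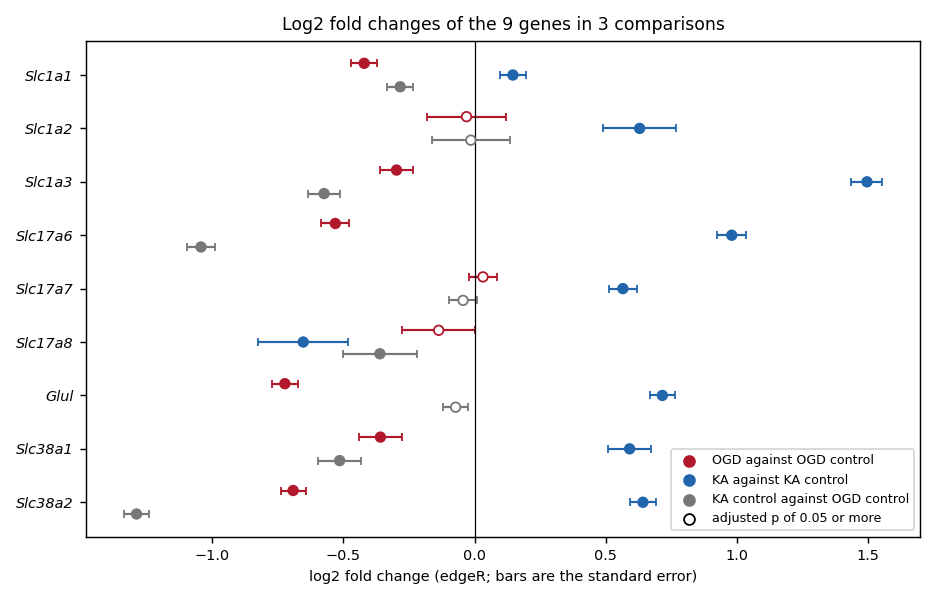
Log2 fold change with its standard error of each of the 9 genes in 3 comparisons, each injury with its own controls and KA control against OGD control; open points did not pass an adjusted p of 0.05. Glul lies at -0.72 for OGD and 0.72 for KA with controls at -0.07, whereas Slc38a2 and Slc17a6 lie at -1.29 and -1.04 in the comparison of the controls.

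The order of the 4 groups differed by gene. Glul was lowest in OGD and highest in KA, with the 2 control groups between them and overlapping. Slc1a3 ran from KA through OGD control and OGD down to KA control, and no neighbours in that order overlapped. For Slc17a6 and Slc38a1, OGD control and KA overlapped at the top; KA control was lowest for Slc17a6 and overlapped OGD for Slc38a1. Slc38a2 was highest in OGD control and lowest in KA control, and OGD and KA overlapped between them. For Slc17a7 and Slc1a2, KA stood above the other 3 groups, which overlapped, and for Slc17a8 KA stood below the others. Slc1a1 was highest in OGD control, which overlapped KA, and lowest in OGD. Without TMM this order held for 3 of the 9 genes.

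With the control groups exchanged, the rises of Slc1a2, Slc1a3, Slc17a7 and Glul in KA kept their direction and passed, with log2 fold changes of 0.61, 0.92, 0.52 and 0.64, and Slc17a8 stayed lower (-1.01). Against KA control, Glul (-0.65) and Slc1a1 (-0.14) stayed lower in OGD. Slc38a2, Slc17a6 and Slc1a3 turned direction there, at 0.60, 0.51 and 0.28. Slc38a2 and Slc1a1 turned in KA set against OGD control, at -0.65 and -0.14, and Slc38a1 (0.08) and Slc17a6 (-0.063) did not pass. This exchange was chosen after seeing the data and crosses the 2 experiments.

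Beyond the members, a list of 34 genes of glutamate and glutamine metabolism and transport was examined, of which 27 could be tested. After OGD 8 fell and 2 rose (median log2 fold change -0.03), and after KA 11 rose and 12 fell (median -0.07). Over all genes tested 20.5% fell and 17.6% rose after OGD, and 35.2% rose and 37.6% fell after KA. Calls in the list thus went both ways, and after OGD they leaned more to falls than over all genes. That difference from all genes was not tested. Without TMM 5 genes of the list rose and 6 fell after OGD, and 5 rose and 14 fell after KA. Slc1a4 and Slc1a5, neutral amino acid transporters of the same family as the glutamate transporters, fell after OGD (-0.30 and -0.25) and rose after KA (0.29 and 0.51). Without TMM the call of Slc1a4 after KA (0.03) and that of Slc1a5 after OGD (-0.21) were lost.

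Enzymes and mitochondrial carriers of glutamate and aspartate went both ways after KA. Got1, the cytosolic aspartate aminotransferase, rose (0.33, SE 0.05), and Got2, its mitochondrial counterpart, fell (-0.30, SE 0.04). Slc25a12, the aspartate-glutamate carrier of neurons, had 117 ± 5.04 CPM in KA, set against 153 ± 1.27 CPM in KA control and fell. None of these 3 passed after OGD, and Got1 after KA did not pass without TMM (0.07). Asns, which uses glutamine to make asparagine, fell after OGD (-0.13, not called without TMM) and did not pass after KA (0.02). Without TMM Asns was called lower after KA (-0.24, edgeR adjusted p = 4.47e-06). Slc7a11, the cystine-glutamate exchanger, had 22.1 ± 0.50 CPM in OGD, set against 31.5 ± 4.27 CPM in OGD control and fell (-0.51, SE 0.08, edgeR adjusted p = 1.29e-05). After KA it did not pass (-0.07, SE 0.10), but without TMM it was called lower (-0.32, edgeR adjusted p = 0.00419). Arl6ip5, whose protein binds EAAC1 and lowers its activity, rose after KA (0.31, SE 0.04), and did not pass without TMM (0.06).

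Within the Slc38 family the responses ran in both directions. Slc38a4, a system A carrier, rose after KA at a low level, with 2.76 ± 0.29 CPM in KA, set against 0.96 ± 0.20 CPM in KA control (1.54, SE 0.22). Slc38a7 and Slc38a9, both lysosomal amino acid transporters, fell after KA (-0.52 and -0.51). Slc38a6 rose after OGD (0.66, SE 0.15) and fell after KA (-0.42, SE 0.15). The 3 Slc38 genes that rose after KA, Slc38a1, Slc38a2 and Slc38a4, all lie on chromosome 15.

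GABA is made from glutamate, and genes of its synthesis and transport went different ways. Gad2 and Gad1, the glutamate decarboxylases, rose after KA (1.02 and 0.41) and fell after OGD (-0.57 and -0.20). Slc6a11, a plasma membrane GABA transporter, had 70.7 ± 4.43 CPM in KA, set against 127 ± 4.12 CPM in KA control, and fell (-0.85, SE 0.05, edgeR adjusted p = 9.01e-15). After OGD it rose (0.24, SE 0.06). Slc32a1, the vesicular GABA transporter, fell after OGD (-0.24) and after KA (-0.28). The untreated groups also differed. In KA control against OGD control, Gad2, Gad1 and Slc32a1 were lower (-2.44, -1.53 and -1.63) and Slc6a11 was higher (1.07). Gad1, Gad2 and Slc32a1 also stand in the inhibitory neuron marker list.

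**Figure D4:**
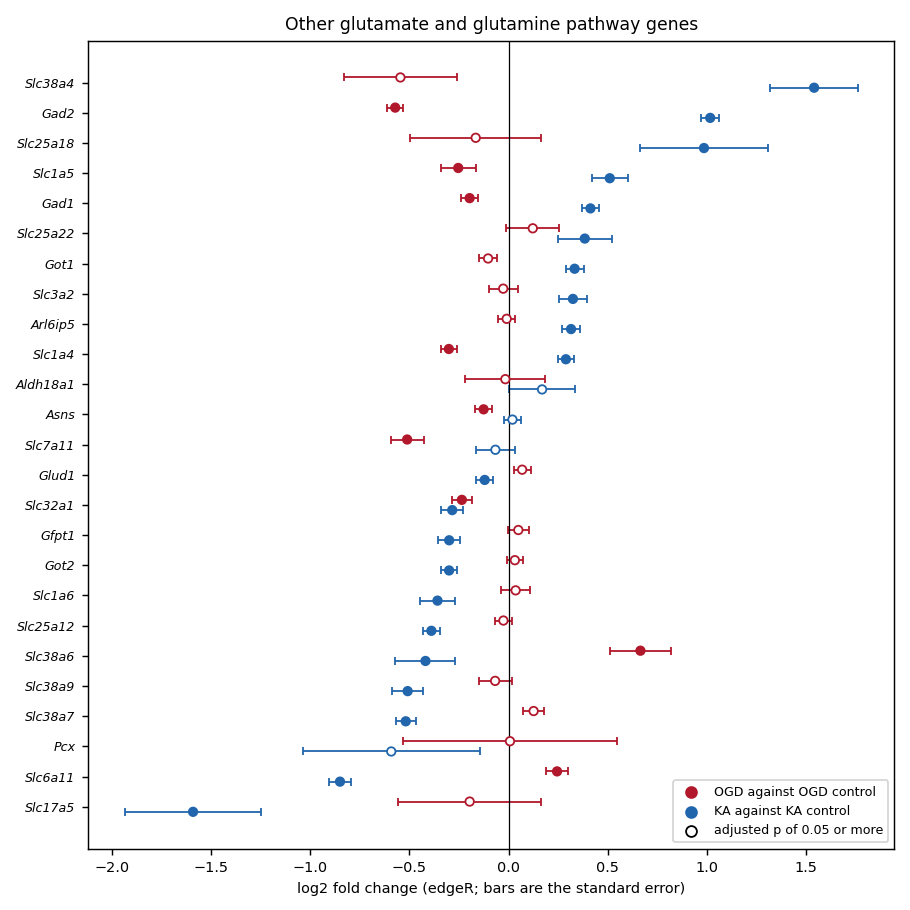
Log2 fold change with its standard error of 25 of the 27 tested genes of the wider list in each injury set against its own controls, sorted by the KA value; open points did not pass an adjusted p of 0.05. Values after KA run from -1.59 for Slc17a5 to 1.54 for Slc38a4, and those after OGD from -0.57 for Gad2 to 0.66 for Slc38a6.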

How the data were processed

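RNA of 12 libraries of primary mouse neurons was sequenced, in 4 groups of 3. Per the labels' protocols, RNA came from an RNeasy kit and went into TruSeq RNA v2 libraries, a chemistry without strand information. The submitters' processing notes name bcl2fastq 1.8.4, TopHat 1.4.1, HTSeq 0.6.1 and the build mm10, with no settings or annotation. The authors deposited raw counts per gene symbol, not normalized. The columns of the OGD experiment are headed OGT and were matched to the titles by name.

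Tests ran in edgeR 4.0.16 (R 4.3.3): filterByExpr (minimum count 10, total 15), TMM, and a quasi-likelihood fit of 4 group means over 12 libraries, with 8 residual degrees of freedom. Calls used a Benjamini-Hochberg adjusted p under 0.05 over 13139 genes. The script was tested on simulated data. DESeq2 1.42.0 and other settings were alternatives; the exchanged controls and the fit without TMM were added after seeing the data. Transcript lengths and coordinates came from GENCODE M21 (mm10), and the list gene Pc was matched as Pcx. All replicate pairs differed beyond sampling noise, with chi-square over degrees of freedom of 1.48 to 6.19. Depending on the library, 1 count equals 0.0429 to 0.0832 CPM; where no read was counted the upper limit is 3 counts, 0.129 to 0.249 CPM, for counting error only.

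The members and lists were chosen with earlier results of these data known. Named genes were the 9 members, for each injury up to 12 called genes of the wider list with the smallest adjusted p, the 4 most abundant astrocyte and radial glia markers, and, in each role, the 3 genes most like the member with the widest range of group means. Other markers named, and Slc17a5, were chosen after their values were seen. Some items of the wider list are not reported here by name.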

Additional observations from a re-analysis of the deposited data

Results flagged for a closer look

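These results stand out because the OGD and KA responses of a gene differed in a test of the difference itself (OGD response minus KA response, log2 scale, edgeR adjusted p under 0.05), which 68.2% of all tested genes did. Among the plasma membrane transporters the difference was -0.57 for Slc1a1, -0.66 for Slc1a2 and -1.79 for Slc1a3. Among the vesicular transporters it was -1.51 for Slc17a6, -0.53 for Slc17a7 and 0.52 for Slc17a8, whose call was lost under several alternatives. In the glutamine cycle it was -1.44 for Glul, -0.95 for Slc38a1 and -1.33 for Slc38a2.

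In the wider list, genes of GABA synthesis and uptake differed by -1.59 (Gad2), -0.61 (Gad1) and 1.09 (Slc6a11). Amino acid transporters differed by -0.59 (Slc1a4), -0.76 (Slc1a5), -0.44 (Slc7a11), -2.08 (Slc38a4), 1.08 (Slc38a6), 0.64 (Slc38a7) and 0.44 (Slc38a9). Enzymes, carriers and the EAAC1-binding protein differed by -0.15 (Asns), -0.44 (Got1), 0.33 (Got2), 0.36 (Slc25a12) and -0.32 (Arl6ip5). The groups of 3 libraries were too small for a test of outlying samples.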

How the results depend on the processing

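Under the alternatives planned, the 6 falls after OGD and the rises of 7 genes after KA kept their direction and stayed past the threshold, and Slc1a1 after KA did not. The 1 member higher in the difference of responses, Slc17a8, was not called with DESeq2 or with DESeq2 size factors (0 genes each), and 0 to 1 without single libraries. Among changes that did not pass, the log2 fold change ran across 0 without single libraries for Slc17a7 (-0.021 to 0.087) and Slc1a2 (-0.14 to 0.094) after OGD, and for Slc1a2 (-0.12 to 0.11) and Slc17a7 (-0.10 to 0.0058) between the controls. Slc1a2 between the controls was 0.0053 without a count filter.

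Set against KA control, OGD gave 3 members higher and 2 lower, and 13 genes of the wider list higher and 6 lower. The log2 fold change turned to 0.28 for Slc1a3, 0.51 for Slc17a6, 0.22 for Slc17a8, 0.16 for Slc38a1 and 0.60 for Slc38a2. Set against OGD control, KA gave 4 members higher and 3 lower, and 7 genes of the wider list higher and 10 lower. The log2 fold change was -0.14 for Slc1a1, -0.063 for Slc17a6 and -0.65 for Slc38a2. For this exchange the share called over all genes was not worked out, so the counts are descriptions only. The cause of the changed values was not tested.

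Without TMM, whose factors were 0.912 to 0.935 in KA and 1.10 to 1.11 in KA control, 3 of the 9 members had the same order of the 4 groups, 2 members were lower after KA and 2 were higher in KA control than in OGD control. In the wider list 5 genes were higher after OGD, 5 higher after KA and 5 lower in the difference of responses. Slc1a1 after KA was -0.11, Slc1a2 after OGD 0.017, and between the controls Slc1a2 was 0.17, Slc17a7 0.14 and Glul 0.11. With DESeq2 size factors all 9 kept the order of the 4 groups. With the union of exons as length all 9 kept their rank by the mean over the 12 libraries, while the order within OGD changed. A fit of only the groups compared gives no value for the difference of responses, which uses all 4.

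Replicate numbers are shared between groups, but same-numbered libraries did not deviate together (correlations 0.013 to 0.035 for OGD and -0.049 to -0.026 for KA). With a replicate block, 6 members fell after OGD, and 8 rose and 1 fell after KA; it called 2183 genes higher and 2596 lower after OGD and changed no call of a member. At this depth, Slc1a2 and Slc17a8 are limited by counts of 37 to 120 per library.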

Other observations

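Genes with the most similar pattern over the 12 libraries were found by the root mean square difference between log2 CPM profiles, each centred on its own mean. For Slc1a3 they were Rcc2 (0.068), Ube2ql1 (0.086) and Fjx1 (0.089). Rcc2 had 694 ± 30.7 CPM in KA, set against 249 ± 5.08 CPM in KA control (SD, n = 3 each), and 298 ± 7.52 CPM in OGD, set against 358 ± 3.84 CPM in OGD control. For Slc17a6 they were 3110043O21Rik (0.079), Impdh2 (0.081) and Bmpr1a (0.083). For Glul they were Man1a (0.113), Dhx40 (0.115) and 9430020K01Rik (0.120). All of these values are on the log2 scale, and likeness over 4 groups says nothing of shared function.

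Of the 34 genes of the wider list, 7 had too few counts to be tested: Gls2, Slc1a7, Slc38a3, Slc38a5, Slc38a10, Slc38a11 and Slc25a13. Slc38a3, the glutamine carrier of astrocytes, had 13 counts over the 12 libraries and Gls2 had 17. Whether these low counts reflect the cells or the read counting was not tested.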
